A study of Mus musculus with 16 samples.

Results

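Fth1, Ftl1, Cp, Mt1 and Gstp1 encode proteins that store iron, oxidise iron, bind zinc and copper, or join glutathione to reactive compounds. They were followed here through the response of a mouse fibroblast line to azacytidine. They were taken as all probes whose only gene symbol is one of these names, which gave 9 of 20355 probes and 5 of 9930 genes. Fth1 has 4 probes, Cp has 2, and the other genes have 1 each, and 8 of the 9 probes passed the filter on missing values, with at least 1 for every gene. Fth1, Ftl1, Mt1 and Gstp1 were selected on their low ratios in untransfected cells at 10 µM, and Cp was selected on its high ratio in Erbb2 cells at 5 µM. Values of those groups, and contrasts that contain them, are therefore given for these genes as a description with no test.

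The study hybridised RNA of azacytidine-treated NIH3T3 cells, an established mouse fibroblast line, together with RNA of the matching untreated line on 16 cDNA arrays read in 2 dyes. Azacytidine resembles cytosine, and once in DNA it traps the methyltransferases that act there. NIH3T3 cells transfected with Erbb2, a receptor tyrosine kinase oncogene, were treated at 10 µM (8 arrays) or 5 µM (4 arrays), each set against Erbb2-transfected untreated cells. Untransfected NIH3T3 cells at 10 µM (4 arrays) were set against untransfected untreated cells. How long cells were treated, the vector and whether the transfected line is 1 clone are not stated. Nor do the labels tie arrays to separate cultures, so a p-value measures only the spread between these arrays.

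Ferritin is a hollow protein shell built of heavy (Fth1) and light (Ftl1) chains that stores iron in a safe form. Ceruloplasmin (Cp) carries copper and oxidises ferrous iron as it leaves cells, metallothionein 1 (Mt1) binds zinc and copper through its cysteines, and Gstp1 is the pi-class glutathione transferase. In fibroblasts, ferritin translation follows the iron level, and metallothionein and glutathione transferase genes respond to metals and to oxidants.

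Because azacytidine acts on methylation of cytosine before guanine, the 250 bases before the start of each gene are shown, with every CG dinucleotide in capitals. The sequences and starts are those of RefSeq on GRCm38.p6, read 5′ to 3′ on the strand of the gene. All 5 genes matched by symbol. Where RefSeq gives 2 starts, for Fth1 and Cp, the window with more CG dinucleotides is shown, or the first on a tie. Neither methylation nor start sites were measured on these arrays.
Fth1: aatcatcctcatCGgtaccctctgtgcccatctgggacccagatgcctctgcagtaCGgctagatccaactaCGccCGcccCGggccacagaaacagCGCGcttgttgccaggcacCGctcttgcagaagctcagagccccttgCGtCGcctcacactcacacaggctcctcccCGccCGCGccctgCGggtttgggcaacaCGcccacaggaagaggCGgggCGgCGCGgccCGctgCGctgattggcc
Ftl1: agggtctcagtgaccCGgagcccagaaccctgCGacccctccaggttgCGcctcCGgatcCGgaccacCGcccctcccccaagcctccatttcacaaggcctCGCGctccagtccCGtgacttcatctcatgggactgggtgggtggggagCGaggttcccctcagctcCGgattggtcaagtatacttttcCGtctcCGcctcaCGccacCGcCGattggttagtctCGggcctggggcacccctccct
Cp: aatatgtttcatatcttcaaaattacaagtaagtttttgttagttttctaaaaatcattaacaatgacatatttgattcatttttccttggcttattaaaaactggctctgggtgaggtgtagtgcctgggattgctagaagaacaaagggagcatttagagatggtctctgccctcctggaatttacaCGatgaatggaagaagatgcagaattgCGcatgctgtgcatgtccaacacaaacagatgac
Mt1: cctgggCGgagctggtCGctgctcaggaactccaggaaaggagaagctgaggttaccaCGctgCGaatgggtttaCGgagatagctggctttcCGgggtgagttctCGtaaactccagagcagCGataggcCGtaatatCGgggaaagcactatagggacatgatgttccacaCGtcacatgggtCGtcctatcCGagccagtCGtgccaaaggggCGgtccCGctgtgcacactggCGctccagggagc
Gstp1: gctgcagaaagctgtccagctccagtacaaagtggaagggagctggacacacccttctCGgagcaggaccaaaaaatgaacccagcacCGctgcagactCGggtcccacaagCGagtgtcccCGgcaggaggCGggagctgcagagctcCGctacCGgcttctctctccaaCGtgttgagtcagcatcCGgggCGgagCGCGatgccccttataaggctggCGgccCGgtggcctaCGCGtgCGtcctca

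The windows lie at chr19:9982396-9982645 on the plus strand for Fth1, chr7:45459887-45460136 on the minus strand for Ftl1 and chr3:19956804-19957053 on the plus strand for Cp. Those of Mt1 and Gstp1 lie at chr8:94178839-94179088 on the plus strand and chr19:4037913-4038162 on the minus strand. The 4 genes that were low in untransfected cells have many CG dinucleotides there. Fth1 has 21, Gstp1 18, and Ftl1 and Mt1 17 each, beside a median of 6 over 32851 windows of this length. Cp has 2, and 18.8% of all windows have fewer, against 83.7% for Fth1, 78.3% for Gstp1 and 76.5% for Ftl1 and Mt1. The window at the other start of Fth1 has 3. G and C make up 37.2% of the Cp window and between 58.8% and 66.8% of the other 4, beside a median of 52.4%.

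Short motifs were searched on both strands. The core of the metal response element, TGCACNC or TGCGCNC, occurs once in Mt1 as TGCACAC, at bases 23 to 17 before the start, and in 21.4% of all windows. The core of the antioxidant response element, TGACNNNGC, is in none of the 5 windows shown and in 10.2% of all windows. The AP-1 motif TGANTCA, which can share bases with the antioxidant core, occurs once in Cp as TGATTCA, 177 to 171 bases before the start. It also occurs once in Gstp1 as TGAGTCA, 74 to 68 bases before the start, and in 6.75% of all windows. A match is a description, and no match says only that these letters are not in this window.

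Values are on the log2 scale, treated over untreated, and ± gives limma's standard error for a fitted value. The deposited table does not state which channel is the numerator, so each direction is the likely one, from reading the ratios as Cy5 over Cy3 and turning the sign of arrays with the treated RNA in Cy3. For untransfected cells the labels name 1 dye for both channels of each of the 4 arrays. Were their dyes the other way round, every value of that group would have the opposite sign. The 4 arrays would then lie above all 12 Erbb2 arrays for Fth1 and Ftl1, 2 of the 5 genes, as for 2.77% of features, and would overlap them for Cp, Mt1 and Gstp1. Statements on overlap between the lines hold for the likely direction. An array gave 16153 to 18507 ratios, and precision is limited by the number of arrays. A ratio gives no level, so no gene can be ranked by abundance, and neither the fibroblast label nor the transfected Erbb2, which is in both channels, can be checked as a level. In cultured cells measured in bulk, fewer cells of a kind and less RNA per cell cannot be told apart.

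**Figure D1:**
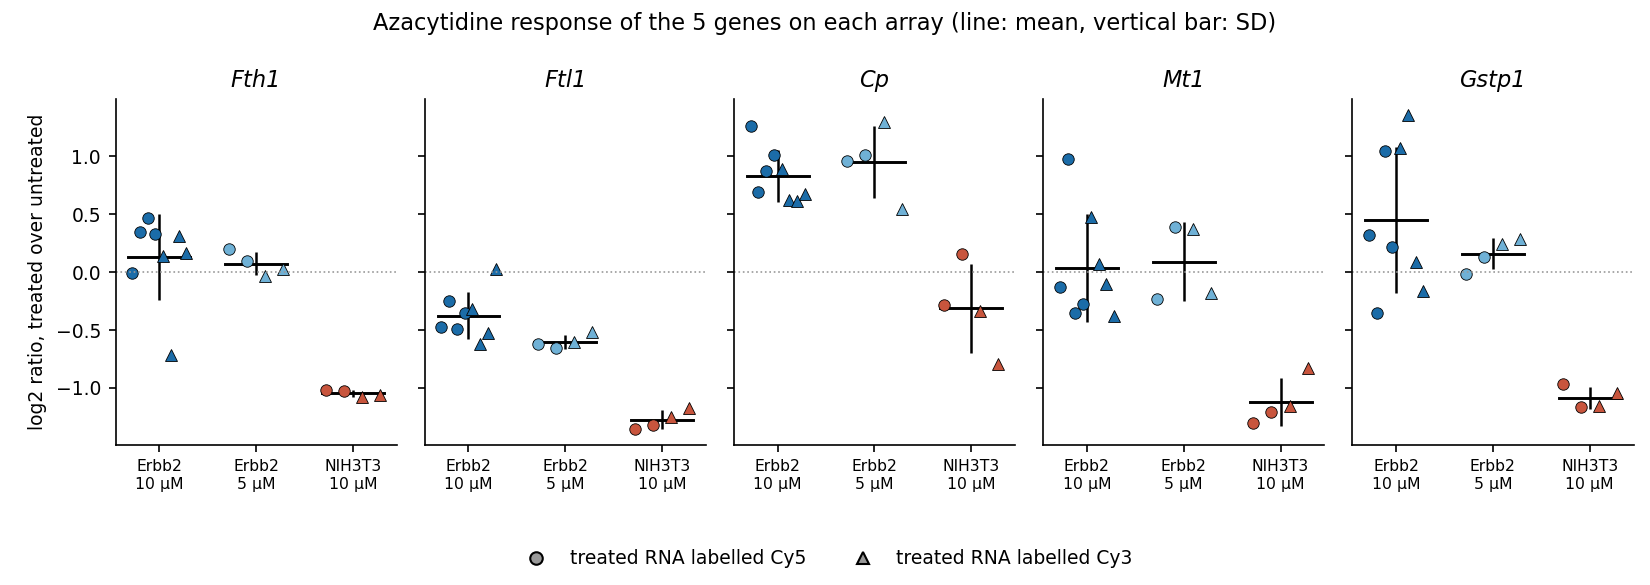
Log2 ratio of treated over untreated RNA (vertical axis) of each gene on each of the 16 arrays, by group, with circles for treated RNA in Cy5, triangles for treated RNA in Cy3, a line at the mean and a bar of 1 SD. In the likely direction the 4 arrays of untransfected cells sit below all 12 arrays of Erbb2 cells in each panel, and turned the other way they would overlap them for Cp, Mt1 and Gstp1.

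Fth1, the ferritin heavy chain with the ferroxidase site (Entrez Gene 14319), was low in untransfected cells and near 0 in Erbb2 cells. Its 4 untransfected arrays gave -1.02, -1.03, -1.08 and -1.06, averaged over 4 probes, and the fitted value was -1.05 ± 0.17, or 2.07-fold lower. The Erbb2 arrays at 5 µM gave 0.20, 0.10, -0.04 and 0.03, and the 8 arrays at 10 µM ran from -0.72 through a median of 0.24 to 0.46. The untransfected arrays lay close together and below every Erbb2 array, the lowest of which was array 6 at 10 µM. Their SD of 0.0268 was smaller than that of all but 0.105% of features, where the median SD was 0.457. That SD is of a mean over 4 probes, which averaging makes smaller, while many features rest on 1 probe. The single probes had SDs from 0.051 to 0.215, and the gene was chosen on these arrays. The fitted values in Erbb2 cells were 0.13 ± 0.12 at 10 µM, with a limma adjusted p of 0.751, and 0.07 ± 0.17 at 5 µM. Neither passed the threshold of 0.05 over the 12420 features tested.

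Each of the 4 Fth1 probes gave the low value in untransfected cells. The probe means there were -1.03, -1.10, -1.05 and -1.01 for probes 234, 558, 1293 and 18996, and none of their 16 ratios was above -0.87. The dye arrangements differed little, with means of -1.03 for treated RNA in Cy5 and -1.07 in Cy3. Among Erbb2 arrays at 10 µM, probe 558 read -3.14 on array 6, while the other 3 probes on that array read 0.17, -0.01 and 0.11. That single ratio set the low Fth1 value of array 6, and without array 6 the Fth1 value at 10 µM was 0.24.

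**Figure D2:**
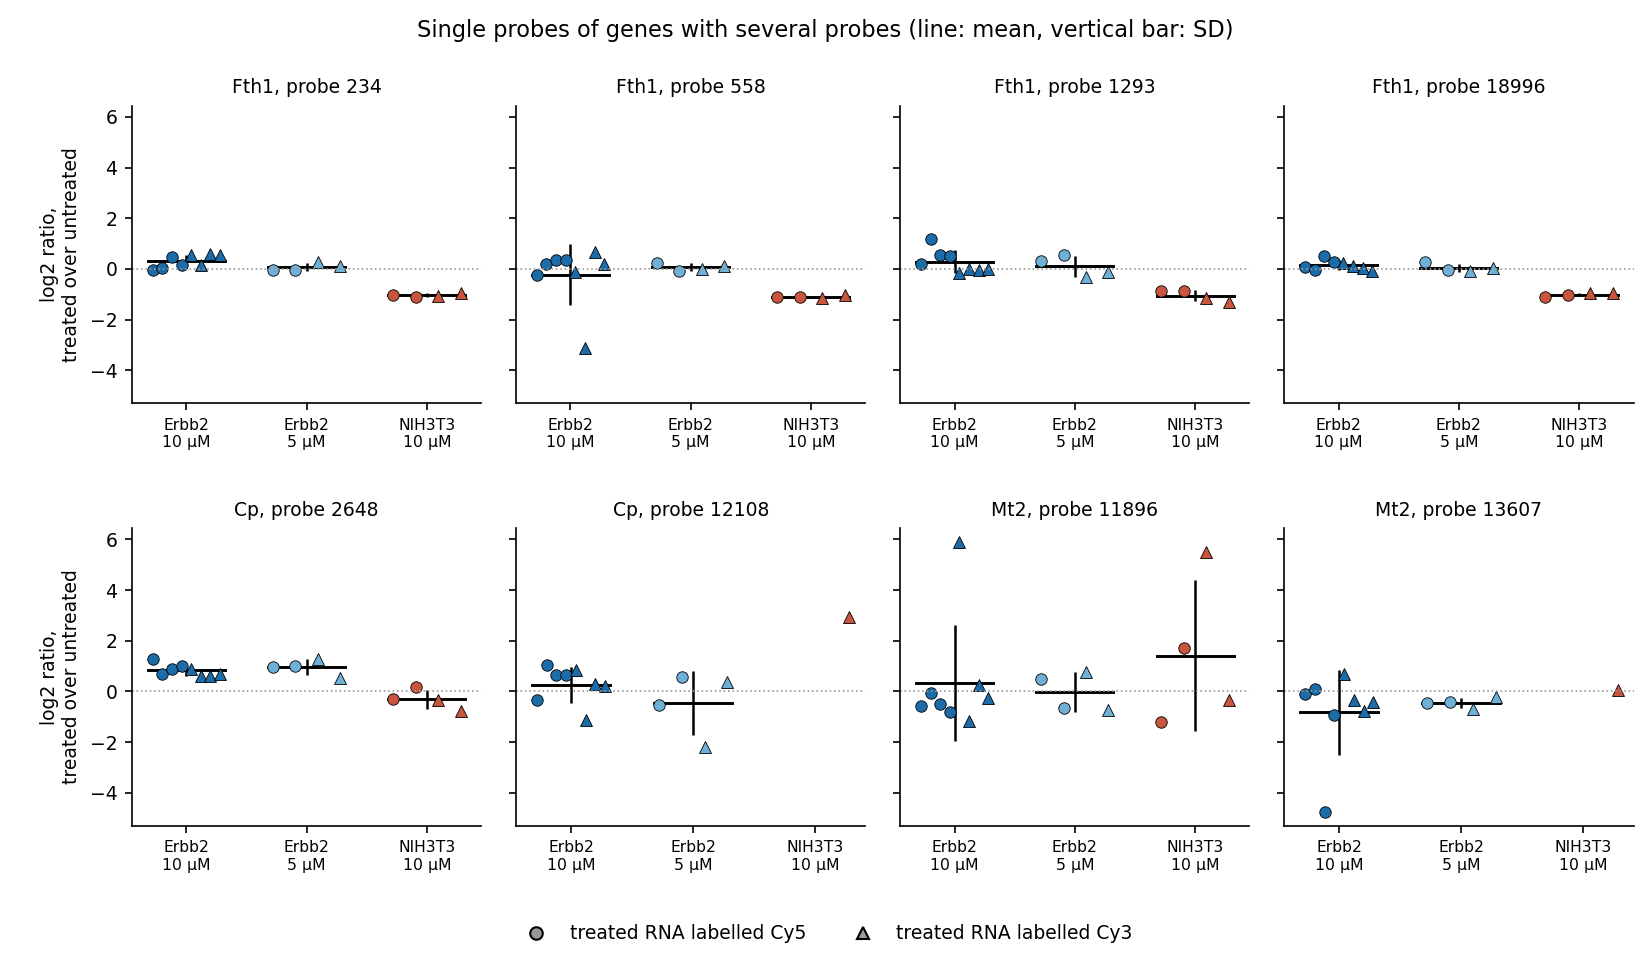
Log2 ratio of treated over untreated RNA (vertical axis) on each array for the single probes of Fth1, Cp and Mt2, by group, with circles for treated RNA in Cy5, triangles for Cy3, a line at the mean and a bar of 1 SD. The 4 Fth1 probes differ little in untransfected cells, while probe 558 falls to -3.14 on 1 array of Erbb2 cells at 10 µM, and Mt2 probe 11896 scatters widely.

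Ftl1, the ferritin light chain that helps iron nucleate inside the shell (14325), was below 0 in every group. The untransfected arrays gave -1.35, -1.32, -1.25 and -1.17, with a fitted value of -1.27 ± 0.14, or 2.42-fold lower. In Erbb2 cells at 5 µM the arrays gave -0.62, -0.66, -0.60 and -0.52, and at 10 µM they ran from -0.62 through a median of -0.41 to 0.03. Untransfected arrays lay below all Erbb2 arrays, and the 5 µM arrays fell at and just below the low end of the 10 µM range. The fitted values were -0.37 ± 0.10 at 10 µM, with 7 of 8 arrays below 0 and a limma adjusted p of 0.102. At 5 µM the value was -0.60 ± 0.14, with 4 of 4 arrays below 0, as for 10.2% of all features, and an adjusted p of 0.166. Neither passed, where 0.0322% of features passed as lower at 5 µM. The 10 µM value minus the 5 µM value was 0.22 ± 0.17, with an adjusted p of 0.998.

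Cp, the copper-carrying ferroxidase (12870), was the gene of the 5 that rose in Erbb2 cells. The 8 arrays at 10 µM ran from 0.62 through a median of 0.78 to 1.26. The fitted value was 0.83 ± 0.12, or 1.78-fold higher, with a limma adjusted p of 0.00204. Every array was above 0, as for 1.31% of features, and 0.403% of features passed as higher in this group. The means by dye were 0.96 with treated RNA in Cy5 and 0.70 in Cy3. The 5 µM arrays, which chose the gene, gave 0.96, 1.01, 1.30 and 0.54, with a fitted value of 0.95 ± 0.17, or 1.94-fold higher, and all 4 were above 0, as for 8.3% of features. The arrays at both doses were set against the same untreated line, so the doses are not independent.

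In untransfected cells Cp gave -0.28, 0.16, -0.33 and -0.79, a fitted value of -0.31 ± 0.17 that did not pass, with a limma adjusted p of 0.547. All 4 untransfected arrays lay below the lowest Erbb2 array, which was 0.54, on 1 of the 5 µM arrays that chose the gene. At 10 µM Erbb2 cells exceeded untransfected cells by 1.14 ± 0.21, with a limma adjusted p of 0.0157, in a contrast where 0.797% of features passed and 0.62% passed as higher. Leaving out array 1 of the untransfected cells gave a difference of 1.10 and an adjusted p of 0.0637, and leaving out array 4 gave 1.02 and 0.0720. Without arrays 3, 5 and 6 of Erbb2 cells at 10 µM it was 1.13, with 0.0595. With the untransfected ratios turned the other way it was 0.52, with 0.308. These values rest on probe 2648. The second Cp probe, 12108, did not pass the filter, as only 1 untransfected array gave a ratio, 2.92. On it the arrays of Erbb2 cells ran from -1.12 to 1.04 at 10 µM and from -2.20 to 0.56 at 5 µM, on both sides of 0.

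Mt1, the metal-binding metallothionein 1 (17748), was low in untransfected cells, where the arrays gave -1.30, -1.21, -1.15 and -0.82. The fitted value was -1.12 ± 0.22, or 2.18-fold lower. Its Erbb2 arrays at 5 µM gave -0.24, 0.39, 0.38 and -0.18, and at 10 µM they ran from -0.38 through a median of -0.11 to 0.98. Untransfected and Erbb2 arrays did not overlap, and Erbb2 arrays fell on both sides of 0 at either dose. The fitted values in Erbb2 cells were 0.04 ± 0.16 at 10 µM, with a limma adjusted p of 0.963, and 0.09 ± 0.22 at 5 µM, which did not pass. Mt2, the paralogue beside Mt1, gave -1.21, 1.71, 5.49 and -0.35 in untransfected cells and no call in any group. Probe sequences were not used here, so signals of Mt1 and Mt2, of ferritin genes and their pseudogenes, or of Gstp1 and its near-identical copy Gstp2 may be mixed.

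Gstp1, the pi-class glutathione transferase (14870), gave -0.97, -1.17, -1.16 and -1.04 in untransfected cells, a fitted value of -1.08 ± 0.25, or 2.12-fold lower. Erbb2 arrays at 5 µM gave -0.02, 0.13, 0.24 and 0.28, and at 10 µM they ran from -0.36 through a median of 0.27 to 1.36. The 10 µM arrays scattered most, with 3 of 8 above 1 and 2 below 0, and no Erbb2 array reached down to the untransfected ones. The fitted value at 10 µM was 0.45 ± 0.18, with a limma adjusted p of 0.364, and at 5 µM 0.16 ± 0.25, and neither passed. The 3 arrays above 1 were arrays 3, 5 and 6, and without them the 10 µM value was 0.025.

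Side by side, the 4 genes that were low in untransfected cells differed little among themselves there, between -1.05 and -1.27, with standard errors of 0.14 to 0.25. In untransfected cells 4 of the 5 genes were below 0 on all arrays, as were 13.3% of features. In the likely direction all untransfected arrays lay below all 12 arrays of Erbb2 cells for 5 of 5 genes, against 1.51% of features, while 0.548% lay above them in the same way. The low values chose 4 of these genes, and high ratios on the 5 µM arrays, 4 of the 12, chose Cp. Each gene was thus chosen on 1 side of this comparison, so the count is a description. Erbb2 cells at 10 µM minus untransfected cells gave 1.53 for Gstp1, 1.18 for Fth1, 1.16 for Mt1 and 0.90 for Ftl1. With the untransfected ratios turned the other way these became -0.64, -0.92, -1.09 and -1.65, so neither their sign nor their order is settled. Between the doses in Erbb2 cells 0% of features passed in limma, with 539 at an unadjusted p under 0.05, and none of the 5 genes passed.

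**Figure D3:**
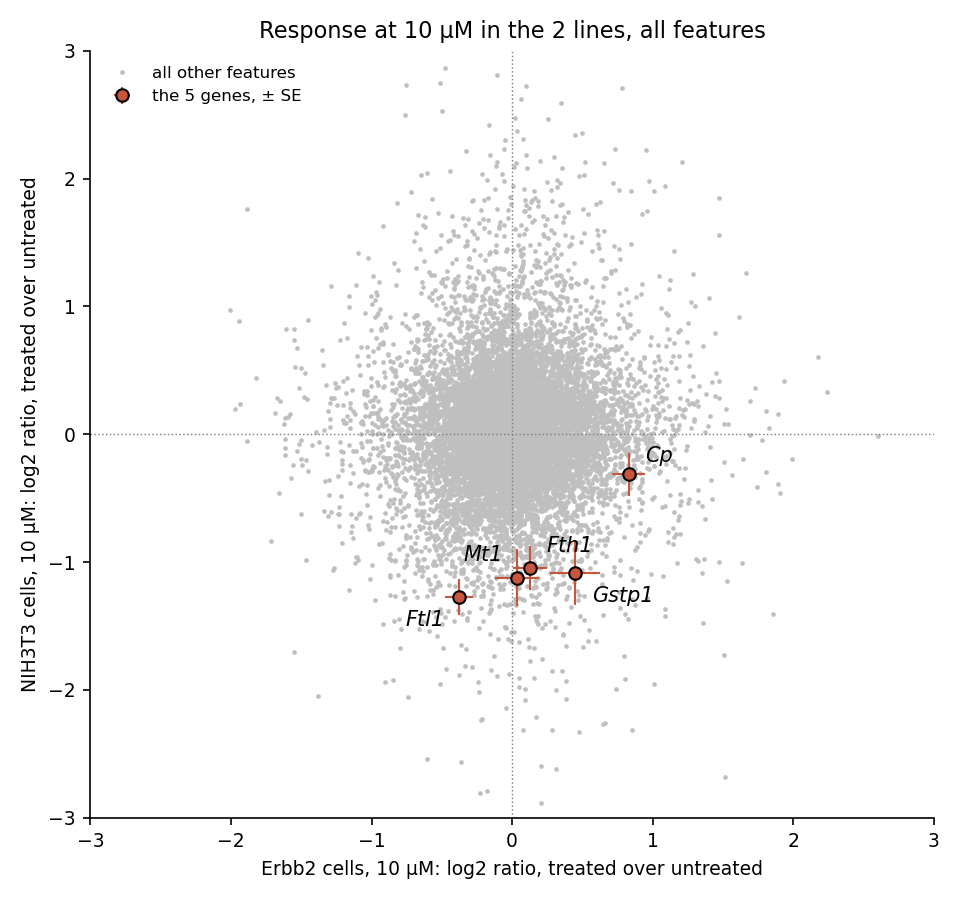
Fitted log2 ratio at 10 µM in Erbb2 cells (horizontal axis) against untransfected cells (vertical axis) for all features in grey and the 5 genes in red with bars of 1 standard error, and 6 features outside ±3 not drawn. Fth1, Ftl1, Mt1 and Gstp1 lie near -1 on the vertical axis, and Cp lies to the right at 0.83.

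The other genes of iron handling were read from a list with 17 measured members beside Fth1, Ftl1 and Cp. In untransfected cells 1 passed as higher and 3 as lower, where 0.596% and 2.13% of all features passed. The median of the 17 was -0.22, beside 0.03 over all features. Hmox1, heme oxygenase, which releases iron from heme, gave -0.49, -1.11, -0.74 and -0.89, with a fitted value of -0.81 ± 0.15 and a limma adjusted p of 0.00628. Without array 2 of these cells its value was -0.71, with an adjusted p of 0.0593, and none of the 17 passed. Pcbp2, an RNA-binding protein that also delivers iron, fell to -0.85 ± 0.21 and Heph, the membrane-bound relative of ceruloplasmin, to -0.78 ± 0.19, calls that were lost in 7 and 8 of the 16 fits that left out 1 array. They were lost without any 1 of the 4 untransfected arrays, with adjusted p up to 0.173 and 0.178. Pcbp2 rests on 1 kept probe, and with at least 2 ratios required in each group it was -0.46, with a limma adjusted p of 0.893. Aco1, the iron-responsive regulator of ferritin translation, gave 2.83, 0.78 and 0.49 on the 3 arrays with a ratio, or 1.44 ± 0.36, and array 1 set that value, which was 0.66 without it, with an adjusted p of 0.587. Its call was lost in 12 of the 16 fits.

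At 10 µM in Erbb2 cells, 0 of the 17 iron genes passed as higher and 2 as lower, with 0.862% of features passing as lower, and their median was 0.03. Heph fell by 0.75 on the log2 scale, ± 0.13, with all 8 arrays between -1.25 and -0.08, as 2.04% of features were all below 0, and a limma adjusted p of 0.00887. Cp, the soluble relative of Heph, rose in these cells. Leaving out any 1 array kept the Heph call, with adjusted p up to 0.0358, and leaving out arrays 3, 5 and 6 together ended it, with 0.128. Pcbp2 was -0.69 ± 0.15, with 6 of 8 arrays below 0 and a limma adjusted p of 0.0293. That call was lost without array 1, 4, 5, 6, 7 or 8 of the group, with adjusted p up to 0.0947. With at least 2 ratios required in each group Pcbp2 was -0.44, with a limma adjusted p of 0.653. At 5 µM 0 of the 17 passed in limma, with 3 at an unadjusted p under 0.05, where 0.209% of all features passed. Between the lines at 10 µM 0 of the 17 passed, with 3 at an unadjusted p under 0.05, where 0.797% of all features passed. For Hmox1 that difference was 0.63 ± 0.18, with a limma adjusted p of 0.177.

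Of 7 measured copper genes other than Cp, Heph passed as lower in Erbb2 cells at 10 µM, and Heph and Sod1 passed as lower in untransfected cells, where 0.862% and 2.13% of all features passed as lower. Sod1, the copper and zinc superoxide dismutase, gave -1.11, -0.96, -0.85 and -0.67 there, or -0.90 ± 0.15, with a limma adjusted p of 0.0030. In Erbb2 cells Sod1 was -0.04 ± 0.10 at 10 µM and -0.04 ± 0.15 at 5 µM. The 10 µM difference between the lines was 0.86 ± 0.18, with a limma adjusted p of 0.0389, a call that was lost in 13 of 16 fits that left out 1 array. Of the 14 other zinc and metallothionein genes, 0 passed in any group in limma. At an unadjusted p under 0.05 there were 2 in untransfected cells, and 1 at 10 µM and 0 at 5 µM in Erbb2 cells. Their medians lay between 0.02 and 0.05.

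Glutathione transferases other than Gstp1 did not pass in limma in any group, 0 of 13 measured. At an unadjusted p under 0.05 there was 1 at each dose in Erbb2 cells and 2 in untransfected cells, where 2.73% of all features passed the adjusted threshold. Those 2 were Gstk1, the kappa-class transferase, at 0.74 ± 0.24 with a limma adjusted p of 0.158, and Gstt1, a theta-class transferase, at 0.51 ± 0.22 with 0.355. Both were above 0 on all 4 arrays, opposite in sign to Gstp1. Of the 13 there, 7 were below 0, and the median of the 13 was -0.03. Among the 7 was Gsta4, at -1.16 ± 0.57, with all 4 arrays below 0 and a limma adjusted p of 0.465.

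Genes of glutathione and thioredoxin chemistry fell in part in untransfected cells, with 4 of 20 measured lower and 0 higher, where 2.13% and 0.596% of all features passed. Their median was -0.29, beside 0.03 over all features. Gclm, the regulatory subunit of the enzyme that starts glutathione synthesis, gave -1.05, -1.13, -0.94 and -0.95, or -1.02 ± 0.19, with a limma adjusted p of 0.00633. Prdx1, a peroxiredoxin that reduces peroxides with thioredoxin, gave -1.28, -0.76, -0.85 and -1.05, or -0.99 ± 0.17, with an adjusted p of 0.00398. Calls for Gclm, Prdx1 and Sod1, which is on this list too, were kept in all 16 fits that left out 1 array. Abcc1, a pump that exports glutathione conjugates, was -0.94 ± 0.20, a limma call that was lost without array 1, 2 or 4 of the untransfected cells, with adjusted p up to 0.104. In Erbb2 cells 0 of the 20 passed at either dose in limma, with 5 and 2 at an unadjusted p under 0.05 at 10 and 5 µM. Gclm there was -0.51 ± 0.13 at 10 µM, with an adjusted p of 0.0966. Between the lines at 10 µM 1 of the 20, Sod1, passed in limma, where 0.797% of all features passed. The Gclm difference was 0.51 ± 0.23, with a limma adjusted p of 0.489.

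**Figure D4:**
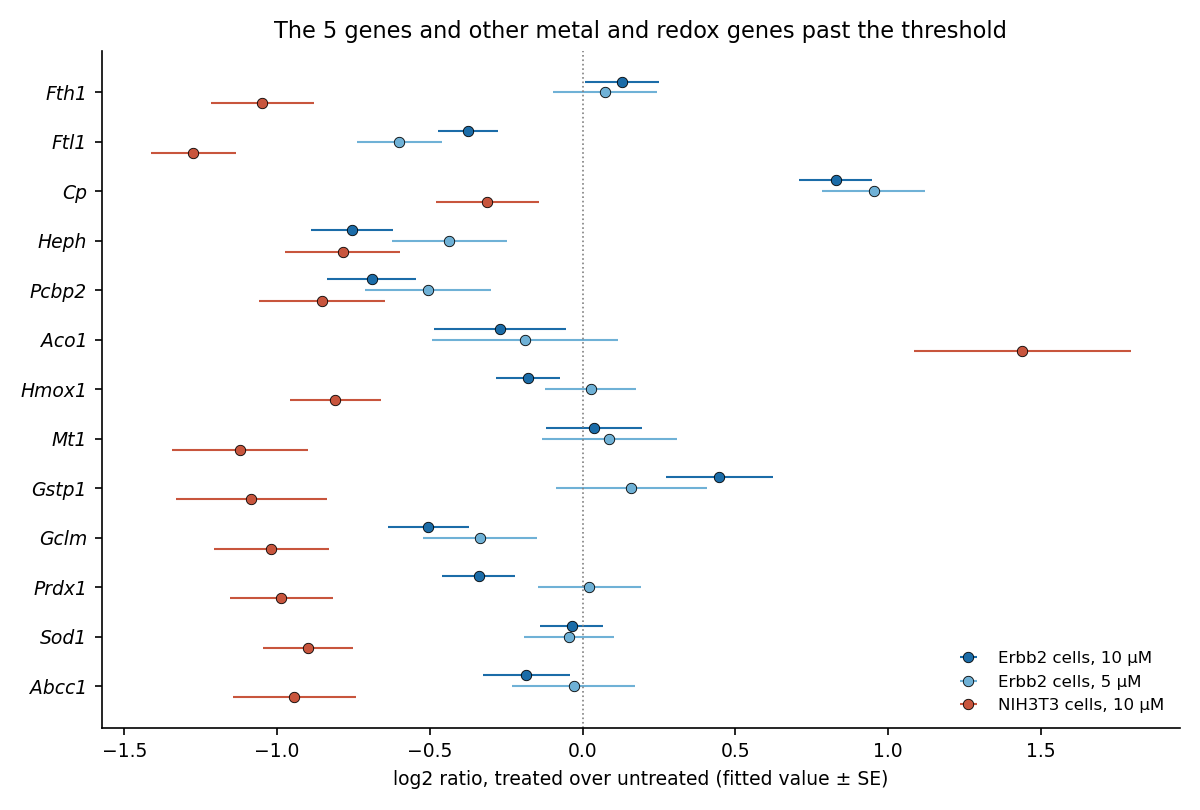
Fitted log2 ratio of treated over untreated RNA (horizontal axis) with bars of 1 standard error for the 5 genes and for the metal and redox genes of the lists that passed in at least 1 group, by group. Heph and Pcbp2 lie below 0 in all 3 groups, while Sod1 and Hmox1 are low in untransfected cells and nearer 0 in Erbb2 cells. Between the lines at 10 µM the Hmox1 difference of 0.63 did not pass, with a limma adjusted p of 0.177.

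Marker genes moved as well. In untransfected cells 4 of 9 measured fibroblast markers passed as lower and 0 as higher, against 2.13% and 0.596% of all features, with Fn1, fibronectin, at -1.63 ± 0.20 and a median of -0.31 over the 9. Fn1 and Lox kept their calls in all 16 fits that left out 1 array, while Col1a2 lost its call in 12 and Vim in 14. Vim was below 0 in Erbb2 cells too, at -0.63, -0.52, -0.82 and -0.45 at 5 µM. At 10 µM its arrays there lay between -0.55 and -0.09. Of 4 measured macrophage markers, 1, Tyrobp, passed as lower in untransfected cells, a call lost in 10 of the 16. Tyrobp was the only 1 of the 4 below 0 there, and their median was 0.21. In Erbb2 cells at 10 µM 1 of the 9 fibroblast markers, Sparc, passed as higher, where 0.403% of all features did. Of the 9, 4 were below 0 there, and their median over the 9 was 0.05. At 5 µM 0 of the 9 passed in limma, with 2 at an unadjusted p under 0.05. The part of these changes in the values above was not tested.

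Over the 16 arrays, the 3 named genes most like each of the 5 were found by Pearson's r among 4979 genes with a ratio on every array. The arrays fall into groups, so r mostly reflects the step between untransfected and Erbb2 cells and is given as a description. Fth1 was most like Grn (0.917), Lhfpl2 (0.914) and Fn1 (0.911), and Ftl1 like Grn (0.932), Hoxb1 (0.912) and Hyi (0.908). Grn encodes progranulin, a secreted growth factor that is processed in lysosomes. Cp was most like Slc3a2 (0.925), Eprs (0.897) and Scpep1 (0.876), and Mt1 like Rexo2 (0.851), Slc3a2 (0.835) and Atp6v1g1 (0.821). Slc3a2 is the heavy chain of amino acid transporters. Gstp1 was most like Rps13 (0.917), Wwtr1 (0.916) and the endoplasmic reticulum chaperone Hspa5 (0.887).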

How the data were processed

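RNA of treated and untreated cells was compared on 16 arrays with 2 dyes, and their number limits the precision. The deposited values are log ratios, read here as log2, though the base is not stated. Medians per array ran from -0.03 to 0.053. Image analysis and normalization are not stated, and signal over background is unknown. Each array's repeated highest value, 1755 cells in all, was read as a placeholder and set to missing, beside 38737 empty cells. Ratios were taken as Cy5 over Cy3 by convention, and no source settles the numerator. Before turning, the mean r over probes between arrays with opposite and the same dye labels was 0.0039 and 0.026 in Erbb2 cells at 10 µM, -0.0027 and 0.052 at 5 µM and -0.053 and 0.11 in untransfected cells. These bear on the turning of arrays, weakly, and not on the numerator. Arrays with the treated RNA in Cy3, 50% of each group by the labels of channel 1, were turned.

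Probes needed a ratio on 3 of 4 or 6 of 8 arrays of each group and on at least 1 array of each dye arrangement, which kept 14813. Of 20355 probes, 14030 had 1 symbol in the platform annotation, 5 several and 6320 none. The Entrez ID of 13994 matched RefSeq, with 0 symbols differing. Probes of 1 gene were averaged, giving 12420 features. limma 3.58.1 in R 4.3.3, with the package data.table (version 1.17.8), fitted all 16 arrays with a term for each group and one for the dye, followed by eBayes and Benjamini-Hochberg adjustment over all features, two-sided. The fit was tested on simulated data.

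The 5 genes and the lists were chosen with earlier results of these data known. Named from the lists were up to 4 genes past the threshold per group, and for each of the 5 genes the 3 with the highest r. Hmox1 is within this rule in untransfected cells where the 5 genes do not count toward the 4. Mt2, for its place beside Mt1, and Gstk1, Gstt1 and Gsta4 were named outside it after their values were seen. Replicate numbers do not pair the arrays. Alternatives covered the direction, the filters, placeholders, probes, dye term, scaling, arrays fitted and replicate block. No column was left unused (0).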

Additional observations from a re-analysis of the deposited data

Results flagged for a closer look

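In Erbb2 cells at 10 µM, 1 array stood apart from the other 7 for Fth1, at -0.718 against a nearest value of -0.0095. For probe 558 of Fth1 alone that array read -3.14 against a nearest value of -0.24. For Col1a2, a fibroblast marker, array 3 of the same group read 1.08 against a nearest value of 0.369. Such gaps were looked for in 73 groups of arrays and found in 3, or 4.11%, where chance gives about 1 in 20.

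Erbb2 and untransfected cells at 10 µM differed by limma's contrast for Cp, by 1.14, for Sod1, by 0.86, and for Fn1, by 1.68, each higher in Erbb2 cells. Of the 16 fits that left out 1 array, 13 lost the Sod1 call, 2 lost the Cp call and 0 lost that of Fn1. With the untransfected ratios turned the other way the Cp difference was 0.52 and no longer passed, and those of Sod1 and Fn1 turned to -0.93 and -1.57. Fth1, Ftl1, Mt1 and Gstp1 were chosen for low values in untransfected cells, so their differences were not tested.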

How the results depend on the processing

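The numbers of features passing were 157, 26 and 339 at 10 and 5 µM in Erbb2 cells and in untransfected cells, 0 between the doses and 99 between the lines. With no array turned for its dye they were 2, 0, 4, 0 and 0, the zeros with 519, 469 and 663 at an unadjusted p under 0.05 in limma. Then Fth1 (0.022), Gstp1 (0.015), Hmox1 (0.0063), Pcbp2 (0.15), Heph (0.0068), Fn1 (0.017) and Vim (0.013) in untransfected cells changed sign, as did Pcbp2 (0.41) and Sparc (-0.22) in Erbb2 cells at 10 µM and the Cp difference between the lines (-0.12). Values without a call also changed sign there, Cp in untransfected cells (0.25), Gstp1 at 10 µM (-0.14) and 5 µM (-0.10) and Mt1 at 5 µM (-0.011). With the untransfected arrays turned the other way, 339 passed in that group, 265 higher and 74 lower, and 351 between the lines, 72 higher and 279 lower in place of 77 and 22. There Fth1 was 1.05, Ftl1 1.27, Mt1 1.12, Gstp1 1.08, Hmox1 0.81, Pcbp2 0.85, Heph 0.78, Sod1 0.90, Gclm 1.02, Prdx1 0.99, Abcc1 0.94, Col1a2 0.79, Fn1 1.63, Vim 0.55, Lox 1.06, Tyrobp 0.68 and Aco1 -1.44. The differences between the lines were -0.93 for Sod1 and -1.57 for Fn1. The direction therefore limits every sign.

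Features with a ratio on every array gave 247 at 10 µM, 73 at 5 µM and 189 between the lines, with fewer features tested, and at least 2 ratios in each group gave 98 and 4 at the 2 doses. Every probe on its own gave 16 at 5 µM, and scaled arrays 46, of which 34 were higher and 12 lower in place of 22 and 4. Groups fitted on their own arrays gave 22, 0 and 0, the zeros with 875 and 1621 at an unadjusted p under 0.05 in limma. Without arrays 3, 5 and 6 of Erbb2 cells at 10 µM, those with the widest spread, 57 passed there. Leaving out 1 array at a time gave 103 to 145 at 10 µM, 5 to 24 at 5 µM, 213 to 372 in untransfected cells, 60 to 105 between the lines and 0 to 0 between the doses. The cause of each change was not tested, apart from the fewer features or arrays.

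Cp at 10 µM stayed between 0.78 and 0.87 over 26 alternatives that keep the direction. Its adjusted p in limma was under 0.05 in 25, the exception being 0.067 with the group fitted on its own arrays. None of the 26 brought in Cp probe 12108, whose ratios in Erbb2 cells at 10 µM ran from -1.12 to 1.04. Ftl1 at 10 µM passed in 1 of the 26. Over all alternatives, 401 of 420 values of the 5 genes moved by less than 1 SD of the arrays and 13 moved further. The other 6 had a call in the main fit and changed sign. Values without a call that changed sign were counted only by how far they moved. Many of these fits could move a value little, such as those leaving out 1 array of another group. The count is therefore no measure of robustness. Of 528 values for the other named genes and the Cp difference, 361 kept their call, 144 lost it and 23 changed sign.

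Same-numbered arrays of different groups did not deviate together, with r from -0.0281 to 0.0383 over 12 pairs. With the replicate number as a block, 156, 25, 335, 0 and 106 features passed, and among the named genes Aco1 (adjusted p of 0.0546 in limma) and Vim (0.0519) in untransfected cells no longer passed.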
